A study of Mus musculus with 12 samples.

Results

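The genes described here are 34 macrophage and myeloid genes of the adult mouse heart, measured by RNA sequencing of whole right ventricle (RV) and left ventricle (LV) in a Wnt loss-of-function (WntLOF) genotype and in control animals. They were taken as the rows of the deposited count table whose gene name is on a fixed list, 1 row per Ensembl gene, and they make up 34 of 40594 genes in the table and 34 of the 15494 genes with enough reads to be tested. All 34 passed that filter on low counts. The 12 libraries form 4 groups of 3: WntLOF RV, WntLOF LV, control RV and control LV. All came from adult heart ventricle extracted with Trizol. The labels give the genotype as a Wnt loss of function without naming the altered gene, its promoter or any Cre driver, and they give no strain, so the targeted gene could not be checked in the libraries. They do not state that libraries came from separate animals, so p-values measure the spread between these libraries, which may be technical in part.

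Macrophages are the most numerous resident leukocytes of the healthy heart. Most are seeded before or around birth and renew locally under the growth factor Csf1, acting through its receptor Csf1r, while others derive from blood monocytes that carry the chemokine receptor Ccr2. Resident cells take up debris through scavenger receptors, tag it with complement C1q, signal through Fc receptors paired with ITAM adaptors and, in part, present peptides on MHC class II. Wnt ligands are secreted lipid-modified proteins that act on many cell types through Frizzled receptors, and the study compared how the genotype and the ventricle set the heart's transcripts.

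The table held between 13274922 and 19173391 counted reads per library. Levels below are CPM, counts per megaread of the normalized library size, and values of a group are listed in the order of its libraries 1, 2 and 3. The 34 members together made up between 508 and 719 CPM, against 73970 to 82650 CPM for 8 cardiomyocyte markers. Every member had reads in every library, with the lowest count 8. Of markers of other leukocytes, the neutrophil genes summed to at most 3.11 CPM and Ly6g, which defines them, was at 0 in all 12 libraries, T and NK cell genes summed to at most 3.09 CPM, mast cell genes to at most 1.74 CPM and B cell genes to at most 11.4 CPM. The dendritic cell list summed to between 36.7 and 57.6 CPM, of which Zbtb46, a factor that endothelium also makes, gave 24.8 to 40.1 CPM. Some libraries stood apart. Wif1, a secreted Wnt inhibitor that was higher in every control RV library (11.99 to 18.4 CPM) than in every control LV library (2.63 to 3.18 CPM), was at 2.56 CPM in the library labelled WntLOF RV 1 and at 13.5 CPM in the library labelled WntLOF LV 1, so these libraries went against their ventricle labels. The water channel gene Aqp4 did the same, at 8.11 CPM in WntLOF RV 1 and 31.2 CPM in WntLOF LV 1, where control RV held 23.5 to 33.9 CPM and control LV 6.88 to 8.54 CPM. Kcnd2, a potassium channel gene, was at 91.2 CPM in WntLOF LV 1, where control RV held 83.3 to 95.8 CPM and control LV 31.2 to 44.8 CPM. WntLOF RV 1, at 54.2 CPM, lay between those ranges, and so did WntLOF RV 3, at 59.5 CPM. The atrial gene Myl7 was at 10.2 CPM in WntLOF RV 3 and at most 1.26 CPM elsewhere, and the Y-linked gene Ddx3y was between 102 and 136 CPM in the 4 libraries numbered 3 and at most 0.772 CPM in the other 8.

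Compared per kilobase of annotated exon, the most abundant members were Lyz2, which encodes the bacteria-digesting enzyme lysozyme, with a mean level of 55.5 CPM per kb over the 12 libraries, C1qa with 41.7 CPM per kb and Cd74, the invariant chain of MHC class II, with 30.2 CPM per kb. C1qb and C1qc followed at 22.1 and 19.7 CPM per kb. The ranges of these neighbours in the order overlapped: Lyz2 spanned 42.5 to 73.2, C1qa 32.8 to 52.5 and Cd74 18.6 to 44.6 CPM per kb. Ctss, F13a1, Pf4, Csf1r and Mrc1 formed a middle band with mean levels between 8.03 and 8.97 CPM per kb. At the low end were Ms4a7 at 0.280, Ccr2 at 0.296, Fcgr1 at 0.400 and Trem2 at 0.456 CPM per kb. Means of 17.6 reads per library for Fcgr1, 20.8 for Ms4a7 and 22.0 for Lgals3 left counting errors of 23.9%, 21.9% and 21.3%, so changes below that size were not detectable per library for these genes.

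Whether the genotype moved these genes was asked in each ventricle. In the RV, Cd68 and Mrc1 had higher levels in every WntLOF library than in every control library, by 1.42-fold and 1.22-fold. Trem2 was the third member to do so, where 3.61% of genes tested did, and 29 of the 34 members had a log2 fold change above 0. In the LV, 18 of 34 members were above 0. Of the 34 only Cd163 was higher there in every WntLOF library than in every control library, where 3.95% of genes tested were. No member passed an adjusted p of 0.05 in either ventricle by edgeR's quasi-likelihood test with Benjamini-Hochberg adjustment, where 0% of the 15494 genes tested passed. DESeq2 also called 0 genes. At an unadjusted p under 0.05, edgeR counted 2 members and 418 genes in the RV and 0 members and 442 genes in the LV, where DESeq2 counted 2 members and 303 genes in the RV and 0 members and 323 genes in the LV.

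The median log2 fold change of the 34 members, WntLOF over control, was 0.11 in the RV, with a range of -0.33 to 0.56, and 0.01 in the LV, with a range of -0.38 to 0.35. Over all genes tested the medians were 0.0007 in the RV and -0.0038 in the LV, with 50.3% and 49.1% of genes above 0. The RV median rested on single libraries. It was -0.01, with 16 of 34 members above 0, without WntLOF RV 3, and 0.04 without control RV 1, against 0.24 without control RV 2 and 0.22 without WntLOF RV 1. Without both libraries that went against their ventricle labels it was also 0.22, with 29 of 34 above 0. WntLOF RV 3 is also the library with the highest Myl7 level. In the same comparison the 3 atrial genes tested had a median log2 fold change of 1.61, with 3 above 0, and 6 of 7 fibroblast markers were above 0, with a median of 0.08. Other lists went both ways. The medians were 0.27 for B cell (3 of 5 above 0), 0.03 for cardiomyocyte (5 of 8) and -0.015 for endothelial markers (4 of 8). They were -0.11 for dendritic cell markers (2 of 5) and -0.12 for erythroid genes (1 of 5). The 4 listed atrial genes summed to 85.4, 35.2 and 44.8 CPM in WntLOF RV libraries, against 28.2, 58.1 and 17.0 CPM in control RV libraries. Most of each sum was Nppa, at 22.1 to 83.7 CPM in WntLOF RV and 15.4 to 55.8 CPM in control RV. The sum and Myl7 went apart, since WntLOF RV 1 had the highest sum and the lowest Myl7 level, 0.0555 CPM. Fibroblast markers summed to 1510, 1436 and 1347 CPM in WntLOF RV libraries, against 1273, 1589 and 1149 CPM in control RV libraries. The part of these lists in the member values was not tested. Since these are whole-ventricle libraries, fewer cells of a type and less RNA per cell cannot be told apart.

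Groups that did not overlap were counted in each direction. In the RV, 3 members (Cd68, Mrc1 and Trem2) were higher in all WntLOF libraries and 0 were lower, where 3.61% and 3.94% of genes tested did so. In the LV, 1 member (Cd163) was higher and 0 were lower, where 3.95% of genes did so in each direction. Counted by a log2 fold change of at least 2 standard errors (SE), 2 members were higher in the RV, where 2.21% of genes were, and 0 lower, where 1.63% were. In the LV, 0 members reached 2 SE in either direction, where 2.01% of genes did upward and 1.97% downward. The LV shares are at or near what all genes gave. A fold change of at least 2 SE chose Cd68 and Mrc1 for description, while Trem2 and Cd163 were singled out after their values were seen.

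**Figure D1:**
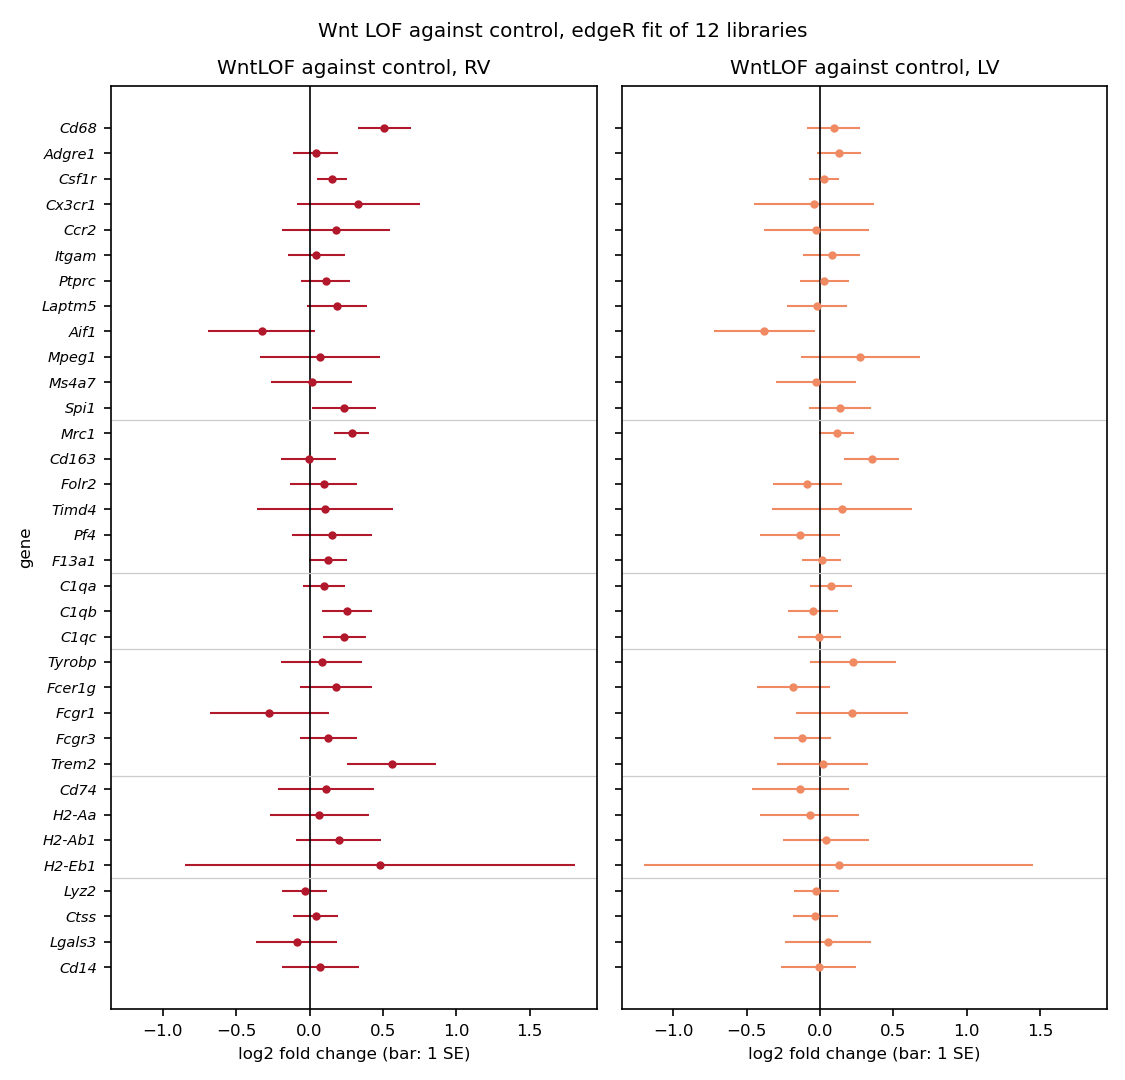
Log2 fold change of each member, WntLOF over control, in the RV on the left and in the LV on the right, with bars of 1 SE from the edgeR fit of 12 libraries and grey lines between gene roles. In the RV 29 of 34 points lie above 0, with Cd68 at 0.51 and Trem2 at 0.56, and in the LV 18 of 34 do. H2-Eb1 has the widest bar.

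The identity genes name a cell as macrophage or monocyte. Cd68, a lysosomal membrane glycoprotein used as a general macrophage marker, was at 8.16, 9.27 and 10.8 CPM in WntLOF RV libraries, against 5.08, 7.35 and 7.44 CPM in control RV libraries. Cd68 in the LV was at 5.87, 6.71 and 7.46 CPM in WntLOF LV libraries, against 5.97, 7.33 and 5.45 CPM in control LV libraries. The RV groups did not overlap, the LV groups did, and WntLOF RV was above all 9 other libraries. The log2 fold change in the RV was 0.51 ± 0.18 (SE, n = 3 each), with unadjusted p = 0.0139 and adjusted p = 1 by edgeR's quasi-likelihood test. Its value ranged from 0.35 without control RV 1 to 0.60 without WntLOF RV 1. In the authors' deposited table, by their own test, the log2 fold change of Cd68 in the RV was 0.63 (unadjusted p = 0.00289, adjusted p = 0.918). In the LV it was 0.07 (unadjusted p = 0.712, adjusted p = 0.969). The difference between the ventricles' genotype effects was 0.42 ± 0.26 (SE) for Cd68, with unadjusted p = 0.128 for the interaction, and 0 members had an adjusted p under 0.05 for it, where 0% of genes did.

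Csf1r, the receptor that macrophages need for survival, was at 48.2, 51.6 and 56.7 CPM in WntLOF RV libraries, against 41.7, 49.0 and 50.1 CPM in control RV libraries. Csf1r in the LV was at 46.4, 45.2 and 49.0 CPM in WntLOF LV libraries, against 39.8, 50.7 and 47.6 CPM in control LV libraries. The groups overlapped in both ventricles, and the highest library exceeded the lowest by only 1.43-fold over all 12. Adgre1, the F4/80 antigen, was at 12.9, 12.7 and 15.7 CPM in WntLOF RV libraries, against 13.2, 15.0 and 11.9 CPM in control RV libraries. Adgre1 in the LV was at 12.5, 12.3 and 16.1 CPM in WntLOF LV libraries, against 11.2, 14.6 and 11.7 CPM in control LV libraries. It varied as little, by 1.45-fold over the 12 libraries, with overlapping groups.

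Spi1, which encodes the myeloid master factor PU.1, was at 3.56, 2.95 and 3.39 CPM in WntLOF RV libraries, against 1.95, 3.64 and 2.87 CPM in control RV libraries. Spi1 in the LV was at 3.50, 4.08 and 4.26 CPM in WntLOF LV libraries, against 3.86, 3.16 and 3.78 CPM in control LV libraries. Control RV 1 was the lowest of all, at a count of 35 reads, and the groups overlapped. Ccr2, the receptor that marks monocyte-derived cells, was at 1.61, 1.87 and 2.81 CPM in WntLOF RV libraries, against 1.34, 2.98 and 1.24 CPM in control RV libraries. Ccr2 in the LV was at 1.25, 2.30 and 2.52 CPM in WntLOF LV libraries, against 2.32, 2.21 and 1.59 CPM in control LV libraries. Its groups overlapped in both ventricles, on counts of 19 to 45 reads per library. The remaining identity genes (Cx3cr1, Itgam, Ptprc, Laptm5, Aif1, Mpeg1 and Ms4a7) also overlapped between genotypes in both ventricles. Among the 12 identity genes the median log2 fold change was 0.13 in the RV, with 11 above 0, and 0.03 in the LV, with 7 above 0. Aif1, an actin-binding protein of activated macrophages, had the lowest values, at -0.33 in the RV and -0.38 in the LV.

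**Figure D2:**
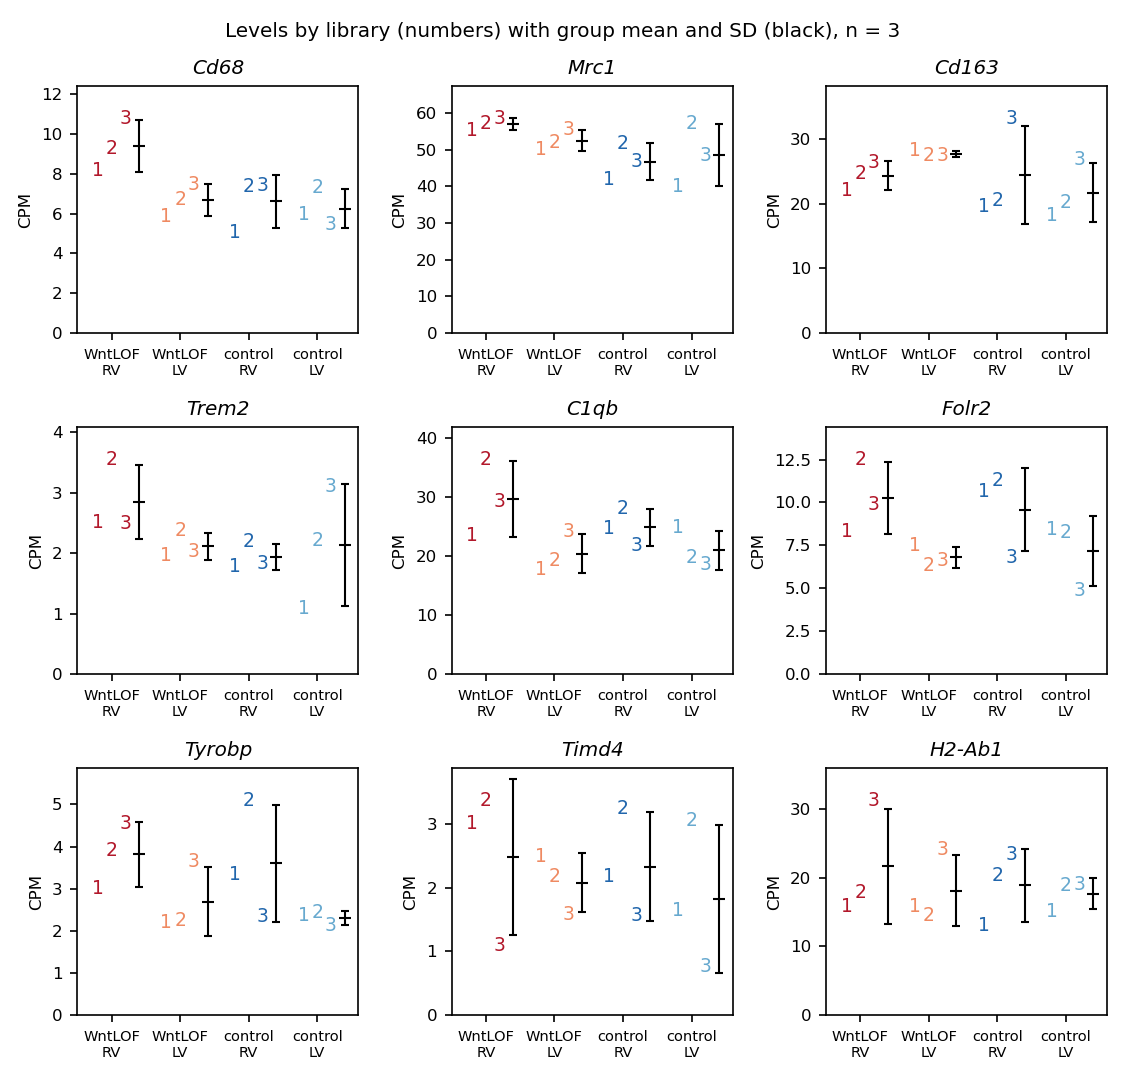
CPM of 9 members in each library, drawn as its library number, with the group mean and SD (n = 3) in black beside it, and groups from left to right WntLOF RV, WntLOF LV, control RV and control LV. Cd68 in WntLOF RV lies between 8.17 and 10.8 CPM, above every other library, and Timd4 is lowest in library 3 of each group.

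The resident macrophage genes mark scavenger cells of long standing in tissue. Mrc1, the mannose receptor CD206, was at 55.1, 57.2 and 58.5 CPM in WntLOF RV libraries, against 41.7, 51.7 and 46.7 CPM in control RV libraries. Mrc1 in the LV was at 49.9, 51.9 and 55.5 CPM in WntLOF LV libraries, against 40.0, 57.0 and 48.5 CPM in control LV libraries. All 3 WntLOF RV values lay above the 3 control RV values, with a log2 fold change of 0.29 ± 0.12 (SE), unadjusted p = 0.0286 and adjusted p = 1 by edgeR's quasi-likelihood test. Control LV 2, at 57.0 CPM, was as high as the WntLOF RV libraries. Cd163, the scavenger receptor for haemoglobin bound to haptoglobin, was at 22.0, 24.6 and 26.4 CPM in WntLOF RV libraries, against 19.6, 20.5 and 33.2 CPM in control RV libraries. Cd163 in the LV was at 28.2, 27.4 and 27.4 CPM in WntLOF LV libraries, against 18.2, 20.2 and 26.9 CPM in control LV libraries. The LV groups did not overlap, with a mean of 27.7 ± 0.439 CPM in WntLOF and 21.7 ± 4.54 CPM in control (SD, n = 3 each). The RV groups overlapped, with control RV 3 the highest of all 12. WntLOF over control, the LV gave a log2 fold change of 0.35 ± 0.19 (SE), with unadjusted p = 0.0824 and adjusted p = 0.999 by edgeR's quasi-likelihood test. In the authors' deposited table it was 0.41, with a smaller unadjusted p = 0.00954 and adjusted p = 0.841 by their own test.

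Timd4, a receptor for phosphatidylserine on self-renewing resident macrophages, was at 3.00, 3.37 and 1.09 CPM in WntLOF RV libraries, against 2.18, 3.25 and 1.57 CPM in control RV libraries. Timd4 in the LV was at 2.49, 2.17 and 1.57 CPM in WntLOF LV libraries, against 1.65, 3.06 and 0.756 CPM in control LV libraries. It was the lowest of 3 in the library numbered 3 of every group and showed no separation by genotype. Folr2, a folate receptor of resident cells, ran from 4.84 to 12.5 CPM over the 12 libraries, Pf4, a chemokine that tissue macrophages also make, from 4.05 to 8.28 CPM and F13a1, the clotting transglutaminase subunit, from 51.2 to 70.1 CPM. All 3 overlapped between genotypes in both ventricles. The 6 resident genes had a median log2 fold change of 0.11 in the RV, with 5 above 0, and 0.06 in the LV, with 4 above 0.

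Complement C1q is built from the products of C1qa, C1qb and C1qc in tissue macrophages and binds immune complexes and dying cells. C1qa was at 42.1, 51.6 and 53.2 CPM in WntLOF RV libraries, against 42.4, 54.6 and 40.3 CPM in control RV libraries. C1qa in the LV was at 39.9, 34.1 and 47.3 CPM in WntLOF LV libraries, against 38.2, 42.4 and 34.6 CPM in control LV libraries. C1qb was at 23.6, 36.5 and 29.2 CPM in WntLOF RV libraries, against 24.7, 28.1 and 21.9 CPM in control RV libraries. The RV values of both genes overlapped between genotypes. C1qb in the LV was at 17.8, 19.3 and 24.1 CPM in WntLOF LV libraries, against 24.8, 19.8 and 18.5 CPM in control LV libraries. C1qc was at 31.8, 51.9 and 44.5 CPM in WntLOF RV libraries, against 34.1, 40.5 and 34.2 CPM in control RV libraries, and in the LV it was at 33.4, 35.5 and 40.4 CPM in WntLOF LV libraries, against 35.7, 37.1 and 36.9 CPM in control LV libraries. WntLOF RV 2 was the highest of all 12 for C1qb and C1qc, while WntLOF RV 1 was the lowest of all for C1qc, so the genotype groups overlapped in both ventricles. The 3 genes had log2 fold changes of 0.10, 0.26 and 0.24 in the RV and 0.07, -0.05 and 0.00 (-0.004 for C1qc) in the LV. With control LV 2 and the pair of WntLOF libraries numbered 1 left out, the RV values of C1qb and C1qc were 0.40 (unadjusted p = 0.0362, adjusted p = 1) and 0.41 (unadjusted p = 0.00487, adjusted p = 1) by edgeR's quasi-likelihood test. Control LV 2 is no part of the RV groups, and its Wif1 level, 2.69 CPM, did not go against its ventricle label. This fit also drops WntLOF RV 1, the lowest WntLOF RV library for both genes, which raises their values. They were named for it after their values were seen.

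Genes of the other complement components came to 9 tested of 10 listed, with 0 past the test in either direction and medians of 0.10 in the RV and 0.10 in the LV. Their summed level was 355 to 476 CPM in WntLOF RV against 284 to 550 CPM in control RV, and 281 to 438 CPM in WntLOF LV against 270 to 402 CPM in control LV.

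Fc receptors bind antibody-coated particles and, with Trem2, signal through the ITAM adaptors Tyrobp and Fcer1g. Tyrobp was at 3.00, 3.91 and 4.54 CPM in WntLOF RV libraries, against 3.35, 5.10 and 2.35 CPM in control RV libraries. Tyrobp in the LV was at 2.19, 2.24 and 3.65 CPM in WntLOF LV libraries, against 2.37, 2.42 and 2.12 CPM in control LV libraries. Control RV 2 was the highest and the control LV libraries were among the lowest, with overlap between genotypes. Fcer1g was at 3.61, 4.45 and 5.75 CPM in WntLOF RV libraries, against 2.73, 5.50 and 3.98 CPM in control RV libraries. Fcer1g in the LV was at 3.44, 3.03 and 3.93 CPM in WntLOF LV libraries, against 3.40, 4.43 and 4.01 CPM in control LV libraries. Its groups overlapped as well. Trem2, a lipid-sensing receptor of macrophages, was at 2.50, 3.55 and 2.49 CPM in WntLOF RV libraries, against 1.78, 2.19 and 1.83 CPM in control RV libraries. Trem2 in the LV was at 1.96, 2.37 and 2.02 CPM in WntLOF LV libraries, against 1.08, 2.21 and 3.10 CPM in control LV libraries. The WntLOF RV libraries lay above the control RV libraries, with a log2 fold change of 0.56 ± 0.31 (SE), unadjusted p = 0.0885 and adjusted p = 1 by edgeR's quasi-likelihood test, on 21 to 59 reads per library, and the control LV libraries spanned most of the range. Fcgr1 and Fcgr3, the activating Fc receptors for IgG, overlapped in both ventricles. The median of the 5 genes was 0.13 in the RV, with 4 above 0, and 0.02 in the LV, with 3 above 0.

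MHC class II presents peptides to CD4 T cells, with H2-Aa and H2-Ab1 encoding the I-A chains, H2-Eb1 the beta chain of I-E and Cd74 the chaperone that guides them. H2-Eb1 was at 0.555, 6.92 and 15.0 CPM in WntLOF RV libraries, against 4.41, 0.927 and 10.6 CPM in control RV libraries. H2-Eb1 in the LV was at 0.474, 6.19 and 12.4 CPM in WntLOF LV libraries, against 6.07, 0.844 and 11.0 CPM in control LV libraries. It was below 1 CPM, on 8 to 16 reads, in WntLOF RV 1, WntLOF LV 1, control RV 2 and control LV 2, and between 4.41 and 15.0 CPM in the other 8 libraries, a spread of 31.5-fold that runs across genotype and ventricle. Within each genotype the low RV and LV libraries bore the same number, 1 in WntLOF and 2 in control. The genotype log2 fold changes of H2-Eb1 were 0.48 ± 1.33 (SE) in the RV and 0.13 ± 1.33 (SE) in the LV, with overlapping groups.

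The other MHC class II members did not share this split. H2-Aa was at 29.9, 23.3 and 40.2 CPM in WntLOF RV libraries, against 17.1, 36.2 and 36.0 CPM in control RV libraries. H2-Aa in the LV was at 24.6, 20.1 and 32.5 CPM in WntLOF LV libraries, against 18.2, 34.8 and 28.2 CPM in control LV libraries. None of the 4 libraries that were low for H2-Eb1 was among the 4 lowest for H2-Aa. H2-Ab1 was at 15.7, 17.9 and 31.3 CPM in WntLOF RV libraries, against 13, 20.3 and 23.3 CPM in control RV libraries. H2-Ab1 in the LV was at 15.8, 14.5 and 24.1 CPM in WntLOF LV libraries, against 15.0, 18.9 and 19.1 CPM in control LV libraries. Of the 4 libraries, 1 was among the 4 lowest for H2-Ab1. Cd74 was at 45.3, 42.4 and 74.8 CPM in WntLOF RV libraries, against 31.2, 54.2 and 65.3 CPM in control RV libraries. Cd74 in the LV was at 40.3, 36.4 and 63.4 CPM in WntLOF LV libraries, against 39.9, 51.8 and 62.5 CPM in control LV libraries. Its highest value in every group was in the library numbered 3, as for H2-Ab1 and H2-Eb1.

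A split of this kind was looked for in all other genes tested, by asking that the same 4 libraries lie below the other 8 with at least a 3-fold gap. Beside H2-Eb1, 4 genes met it, named here after their values were seen. Cwc22, a splicing factor, was at most 17.9 CPM in the 4 libraries and at least 176 CPM in the other 8. Rps2, a ribosomal protein gene with many near-identical copies in the genome, was at most 3.01 CPM in the 4 libraries and at least 38.0 CPM in the other 8. Gm16249 and Gm13727 were at most 0.0555 and 0 CPM in the 4 libraries and at least 0.224 and 0.725 CPM in the other 8. Of the direct neighbours of H2-Eb1 on chromosome 17, Notch4 had 1 of the 4 libraries among its 4 lowest. Gpsm3, 2 tested genes away, had 3. H2-DMb1, which helps load peptides and lies 8 tested genes away, had all 4 among its 4 lowest, on 6 to 26 reads per library. Its levels were 0.666, 0.722 and 1.66 CPM in WntLOF RV libraries, against 0.669, 0.397 and 1.44 CPM in control RV libraries, and 0.593, 0.922 and 1.07 CPM in WntLOF LV libraries, against 1.03, 0.527 and 1.14 CPM in control LV libraries, a far smaller gap.

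**Figure D3:**
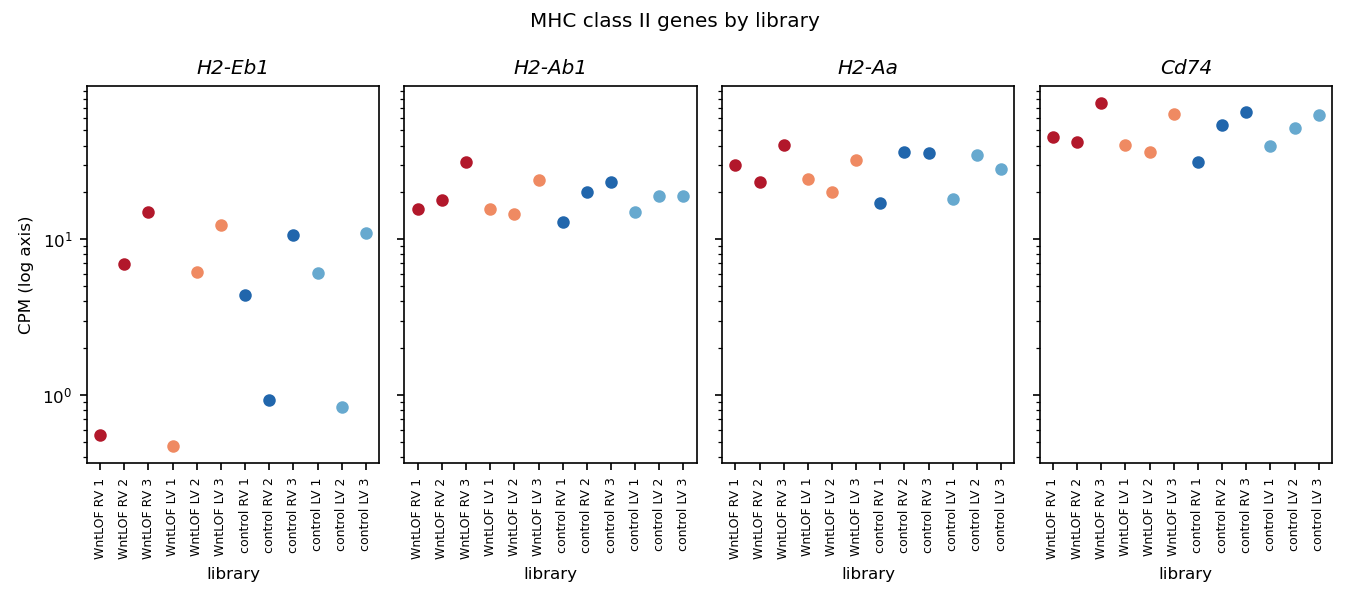
CPM on a log axis of the 4 MHC class II members in each of the 12 libraries, coloured by group in the order WntLOF RV, WntLOF LV, control RV and control LV. H2-Eb1 falls below 1 CPM in 4 libraries, 1 of each group, while the other 3 genes stay between 13 and 74.8 CPM.

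The start regions of H2-Aa and H2-Eb1 are printed because their levels parted although the genes lie side by side. Each spans 250 bases before to 50 bases after the annotated start in RefSeq (build GRCm38.p6), in lower case with the Y box core CCAAT, or ATTGG where it lies on the other strand, in capitals. The Y box belongs to the shared upstream module of MHC class II genes. H2-Aa is chr17:34287774-34288073 on the minus strand and H2-Eb1 is chr17:34305617-34305916 on the plus strand.
H2-Aa: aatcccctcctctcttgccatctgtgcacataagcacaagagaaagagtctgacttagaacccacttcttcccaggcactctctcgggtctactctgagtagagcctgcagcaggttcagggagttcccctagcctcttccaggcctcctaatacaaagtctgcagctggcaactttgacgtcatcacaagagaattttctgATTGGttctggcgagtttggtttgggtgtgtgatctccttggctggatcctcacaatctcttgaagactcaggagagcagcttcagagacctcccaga
H2-Eb1: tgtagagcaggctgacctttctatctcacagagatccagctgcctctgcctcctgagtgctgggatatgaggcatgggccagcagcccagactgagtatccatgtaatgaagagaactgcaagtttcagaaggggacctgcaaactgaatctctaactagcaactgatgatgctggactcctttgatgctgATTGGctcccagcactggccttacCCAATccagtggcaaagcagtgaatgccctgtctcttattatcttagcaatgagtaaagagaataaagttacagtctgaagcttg
H2-Aa held 1 copy and H2-Eb1 held 2 copies. Of all 27025 promoter windows of that length, 37.9% held the letters on either strand, and of the 26 members with a window, 50% did.

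The list of MHC class II regulators and loading genes had 8 of 9 genes tested and 0 past the test in either direction, with a median of 0.18 in the RV, 7 above 0, and -0.03 in the LV, 2 above 0. Ciita, the coactivator that switches on class II genes, was at 4.05, 4.88 and 4.67 CPM in WntLOF RV libraries, against 5.75, 5.83 and 4.83 CPM in control RV libraries. Ciita in the LV was at 6.29, 4.94 and 4.04 CPM in WntLOF LV libraries, against 4.79, 4.11 and 4.54 CPM in control LV libraries. Over the 12 libraries Ciita spanned 4.04 to 6.29 CPM, with no gap like that of H2-Eb1.

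The last group holds lysosomal and surface proteins of innate defence. Lyz2 was at 79.7, 72.3 and 79.5 CPM in WntLOF RV libraries, against 76.9, 96.4 and 63.6 CPM in control RV libraries. Lyz2 in the LV was at 65.0, 60.2 and 77.4 CPM in WntLOF LV libraries, against 72.9, 77.3 and 55.9 CPM in control LV libraries. Control RV 2 held its highest value. Ctss, the cathepsin that trims the invariant chain, was at 11.8, 11.9 and 14.7 CPM in WntLOF RV libraries, against 11.3, 14.5 and 11.6 CPM in control RV libraries. Ctss in the LV was at 10.5, 10.3 and 14.0 CPM in WntLOF LV libraries, against 12.9, 11.97 and 10.8 CPM in control LV libraries. It varied by 1.42-fold over all 12 libraries, the smallest spread among the 4 genes. Lgals3, the galactoside-binding lectin galectin-3 of activated macrophages, was at 1.17, 1.32 and 1.92 CPM in WntLOF RV libraries, against 1.45, 2.05 and 1.18 CPM in control RV libraries. Lgals3 in the LV was at 0.949, 1.38 and 1.18 CPM in WntLOF LV libraries, against 1.18, 1.05 and 1.14 CPM in control LV libraries. Its genotype groups overlapped, on 15 to 31 reads per library. Cd14, which hands endotoxin to Tlr4, was at 2.39, 3.73 and 4.60 CPM in WntLOF RV libraries, against 3.68, 3.05 and 3.40 CPM in control RV libraries. Cd14 in the LV was at 3.44, 3.09 and 5.67 CPM in WntLOF LV libraries, against 4.07, 3.90 and 4.39 CPM in control LV libraries. The genotype groups of all 4 genes overlapped in both ventricles, and their median log2 fold changes were 0.004 in the RV and -0.02 in the LV.

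Of the Toll-like receptor list all 10 genes were tested and 0 passed the test in either direction, with 7 above 0 and 3 below in the RV, where they spanned -0.28 to 0.49 with a median log2 fold change of 0.17, and 5 above and 5 below in the LV, with a median of 0.01. In the RV, Tlr7, an endosomal sensor of single-stranded RNA, was at 2.83, 3.85 and 4.22 CPM in WntLOF RV libraries, against 2.51, 2.52 and 2.74 CPM in control RV libraries, with a log2 fold change of 0.49 ± 0.22 (SE) and adjusted p = 1 by edgeR's quasi-likelihood test. Tlr3, the sensor of double-stranded RNA, had 0.27 ± 0.14 (SE). Both had higher values in every WntLOF RV library than in every control RV library, as did 3.61% of genes tested.

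Of 14 macrophage growth factors and chemokines, 8 were tested and 0 passed the test in either direction. Their median log2 fold change was 0.01 in the RV, with 4 above 0 and 4 below, and -0.15 in the LV, with 2 above and 6 below. Csf1 is the main ligand of Csf1r. Csf1 was at 64.0, 67.2 and 95.9 CPM in WntLOF RV libraries, against 54.8, 55.3 and 60.5 CPM in control RV libraries. Csf1 in the LV was at 71.0, 76.4 and 84.8 CPM in WntLOF LV libraries, against 52.6, 66.2 and 69.6 CPM in control LV libraries. Every WntLOF library was above every control library of its ventricle, as for 3.61% of genes tested in the RV and 3.95% in the LV. Csf1 differed by log2 fold changes of 0.41 ± 0.15 (SE) in the RV (unadjusted p = 0.0144, adjusted p = 1) and 0.30 ± 0.15 (SE) in the LV (unadjusted p = 0.0577, adjusted p = 0.999) by edgeR's quasi-likelihood test. Il34, the second ligand of Csf1r, was at 4.94, 6.56 and 4.67 CPM in WntLOF RV libraries, against 5.58, 4.17 and 7.12 CPM in control RV libraries, with overlap.

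Promoter windows are shown for the members with a window and a log2 fold change of at least 2 SE: Cd68 and Mrc1 between genotypes in the RV, and C1qb, Folr2 and again Cd68 between the ventricles of WntLOF hearts. They follow the same layout, with the core GAGGAA, or TTCCTC on the other strand, in capitals. These letters are the core of sites that PU.1, the product of Spi1, binds. Cd68 is chr11:69666121-69666420 on the minus strand, Mrc1 is chr2:14229164-14229463 on the plus strand and C1qb is chr4:136886151-136886450 on the minus strand. Folr2, of which the first of 2 listed starts was taken, is chr7:101857141-101857440 on the minus strand.
Cd68: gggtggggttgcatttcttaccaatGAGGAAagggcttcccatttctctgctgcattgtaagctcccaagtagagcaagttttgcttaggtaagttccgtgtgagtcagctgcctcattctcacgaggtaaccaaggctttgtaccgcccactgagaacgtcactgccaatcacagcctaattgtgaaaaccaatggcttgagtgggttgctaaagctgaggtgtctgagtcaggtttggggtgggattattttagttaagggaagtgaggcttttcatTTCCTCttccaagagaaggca
Mrc1: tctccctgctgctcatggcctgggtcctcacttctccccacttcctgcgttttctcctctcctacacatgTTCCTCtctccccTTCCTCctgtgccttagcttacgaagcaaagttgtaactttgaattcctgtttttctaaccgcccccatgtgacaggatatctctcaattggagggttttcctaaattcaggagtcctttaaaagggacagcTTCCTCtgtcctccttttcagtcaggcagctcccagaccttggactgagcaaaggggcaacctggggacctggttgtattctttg
C1qb: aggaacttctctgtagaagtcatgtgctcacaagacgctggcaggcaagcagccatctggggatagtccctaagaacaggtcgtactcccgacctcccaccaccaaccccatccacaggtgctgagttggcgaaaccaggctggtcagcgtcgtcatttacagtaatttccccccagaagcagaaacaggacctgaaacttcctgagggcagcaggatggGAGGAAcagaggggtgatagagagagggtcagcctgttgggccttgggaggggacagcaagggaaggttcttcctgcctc
Folr2: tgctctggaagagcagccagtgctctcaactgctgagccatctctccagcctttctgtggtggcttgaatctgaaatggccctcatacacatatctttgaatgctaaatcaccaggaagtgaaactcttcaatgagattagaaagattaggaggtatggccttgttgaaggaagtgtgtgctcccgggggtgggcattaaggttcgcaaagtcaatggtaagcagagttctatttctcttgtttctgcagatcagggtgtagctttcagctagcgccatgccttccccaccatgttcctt
Cd68 held 2 copies, Mrc1 held 3, C1qb held 1 and Folr2 held 0. The letters were present in 15 of the 26 member windows, or 57.7%, and in 28.3% of all 27025 windows, a description of the letters and not of binding. No window was matched for Adgre1, Csf1r, Spi1, C1qa, Tyrobp, Cd74, H2-Ab1 and Cd14.

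The second question of the design was how the ventricles differ. In WntLOF hearts the levels of C1qb, Cd68 and Folr2 were higher in the RV than in the LV by 1.46-fold, 1.41-fold and 1.51-fold, and 26 of 34 members had a log2 fold change above 0. In control hearts Tyrobp had a level 1.55-fold higher in the RV, and 19 of 34 members were above 0. By edgeR's quasi-likelihood test with Benjamini-Hochberg adjustment 0 members passed in either genotype, where 0% of genes tested did, and DESeq2 called 0 genes. At an unadjusted p under 0.05 there were 3 members and 746 genes in WntLOF and 1 member and 757 genes in control by edgeR, and 3 members and 645 genes in WntLOF and 1 member and 683 genes in control by DESeq2.

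As RV over LV, the median of the members was 0.18 in WntLOF hearts and 0.03 in control hearts, beside medians over all genes of -0.0006 and 0.0039, with 49.8% and 51% of genes above 0. Without WntLOF RV 3 the WntLOF median was 0.03, and without WntLOF LV 3 it was 0.26. Without WntLOF RV 1 and WntLOF LV 1, which went against their ventricle labels, it was 0.22, with 23 of 34 members above 0. The control median was -0.09 without control RV 2 and 0.10 without control RV 1. In WntLOF, 3 members (Cd68, Folr2 and Trem2) were higher in all RV libraries than in all LV libraries, where 3.36% of genes were, and 1 member (Cd163) was lower, where 3.7% were. In control, 0 members were higher in all RV libraries, where 6.68% of genes were, and 1 (Cd14) was lower, where 5.92% were. By at least 2 SE, 3 members were higher in WntLOF, where 4.16% of genes were, and 0 were lower, where 2.25% were. The same count in control was 1 higher, where 3.18% of genes were, and 0 lower, where 3.52% were. Trem2, Cd163 and Cd14 were singled out here after their values were seen.

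In WntLOF, C1qb had a log2 fold change of RV over LV of 0.54 ± 0.17 (SE, n = 3 each), with unadjusted p = 0.00711 and adjusted p = 1 by edgeR's quasi-likelihood test, and a mean of 29.7 ± 6.48 CPM in the RV and 20.4 ± 3.31 CPM in the LV (SD). Cd68 had 0.49 ± 0.18 (SE) and unadjusted p = 0.0165. Folr2 was at 8.33, 12.5 and 9.91 CPM in WntLOF RV libraries, against 7.47, 6.32 and 6.62 CPM in WntLOF LV libraries, with 0.59 ± 0.23 (SE) and unadjusted p = 0.0244. In control hearts Folr2 was at 10.7, 11.3 and 6.79 CPM in the RV, against 8.44, 8.23 and 4.84 CPM in the LV. Tyrobp in control had 0.63 ± 0.29 (SE), unadjusted p = 0.0453 and adjusted p = 0.922, and it moved to 0.30 without control RV 2. With control LV 2 and the pair of WntLOF libraries numbered 1 left out, Folr2 in WntLOF had 0.79 ± 0.29 (SE) and C1qb 0.60 ± 0.18 (SE). For Folr2 that fit drops the lowest RV and the highest LV value of WntLOF, which raises its value.

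Over all genes, the deviations from the group means of equally numbered RV and LV libraries correlated at 0.191, 0.197 and 0.594 in WntLOF and at 0.411, 0.29 and 0.517 in control. In WntLOF the numbers 1 and 2 were not set apart by these correlations, since RV 2 with LV 1 gave 0.201 and RV 1 with LV 2 gave 0.133. Cwc22 was picked because it shared the split of H2-Eb1, so that rule fixed that its levels go with the number. They therefore cannot bear on the pairs. It was at 13.2 and 17.9 CPM in WntLOF RV 1 and LV 1, and at 182 and 208 CPM in WntLOF RV 2 and LV 2. With the number as a replicate block and all 12 libraries, 4 members had an unadjusted p under 0.05 in control hearts, where 9.29% of the genes tested did (Folr2 0.42 ± 0.15, C1qa 0.25 ± 0.10, Tyrobp 0.62 ± 0.22 and Lyz2 0.19 ± 0.08, log2 fold change ± SE), the smallest adjusted p being 0.517. In WntLOF hearts 8 members did, where 8.21% of the genes tested did. They were the same 4 genes with 0.57 ± 0.15, 0.28 ± 0.10, 0.51 ± 0.21 and 0.20 ± 0.08, and Cd68, C1qb, Cd74 and H2-Aa, the smallest adjusted p being 0.231 for C1qb. The block raised the count at an unadjusted p under 0.05 over all genes too, to 1440 in control and 1272 in WntLOF, against 757 and 746 without it. In the paired fit of control libraries alone, 326 genes had an adjusted p under 0.05 by edgeR's quasi-likelihood test and 0 members did, the lowest being Folr2 with adjusted p = 0.113. These member names were picked after their values were seen.

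Other genes of these pathways also had values of at least 2 SE between ventricles. In control hearts Tlr4, the endotoxin receptor, was at 33.0, 24.4 and 24.2 CPM in the RV, against 51.9, 35.0 and 33.1 CPM in the LV, with a log2 fold change of -0.56 ± 0.23 (SE). Tlr2 had -0.43 ± 0.21 (SE) and Rfx5, a subunit of the factor that binds class II promoters, had -0.38 ± 0.14 (SE). All 3 had an adjusted p of 0.922 by edgeR's quasi-likelihood test and control groups that did not overlap. In WntLOF hearts Ccl24, an eosinophil-attracting chemokine that macrophages make, had 0.82 ± 0.35 (SE) and Ly96, the Tlr4 partner MD-2, had 0.56 ± 0.27 (SE), both with adjusted p = 1.

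Many members were high or low together in single libraries. Each member's log2 CPM was taken as the difference from its own mean over the 12 libraries. In WntLOF RV 3, 32 of 34 members were above their own mean, with a median difference of 0.28, and in control RV 2, 31 were, with a median of 0.23. WntLOF LV 3 had 27 above and a median of 0.16, and control LV 2 had 23 above and a median of 0.05. The lowest medians were -0.16 in WntLOF LV 1, -0.16 in control LV 1 (9 and 12 members above) and -0.13 in control RV 1 (10 above). Over all genes the library medians lay between -0.0076 and 0.0187.

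Within its group of 3, WntLOF RV 3 held the highest value for 25 of 34 members, WntLOF LV 3 for 24, control RV 2 for 25 and control LV 2 for 16. The same libraries held the highest value for 32.4%, 39%, 34.3% and 31.5% of all genes tested. The blood genes moved with this in part. The 5 erythroid genes summed to 89.3, 151 and 321 CPM in WntLOF RV libraries, against 167, 247 and 164 CPM in control RV libraries, and to 77.3, 94.9 and 224 CPM in WntLOF LV libraries, against 119, 110 and 138 CPM in control LV libraries. In 3 of the 4 groups the library with the highest erythroid sum also had the highest member median, and in control LV it was not so. The part of blood, depth or other cell types in the member levels was not tested.

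**Figure D4:**
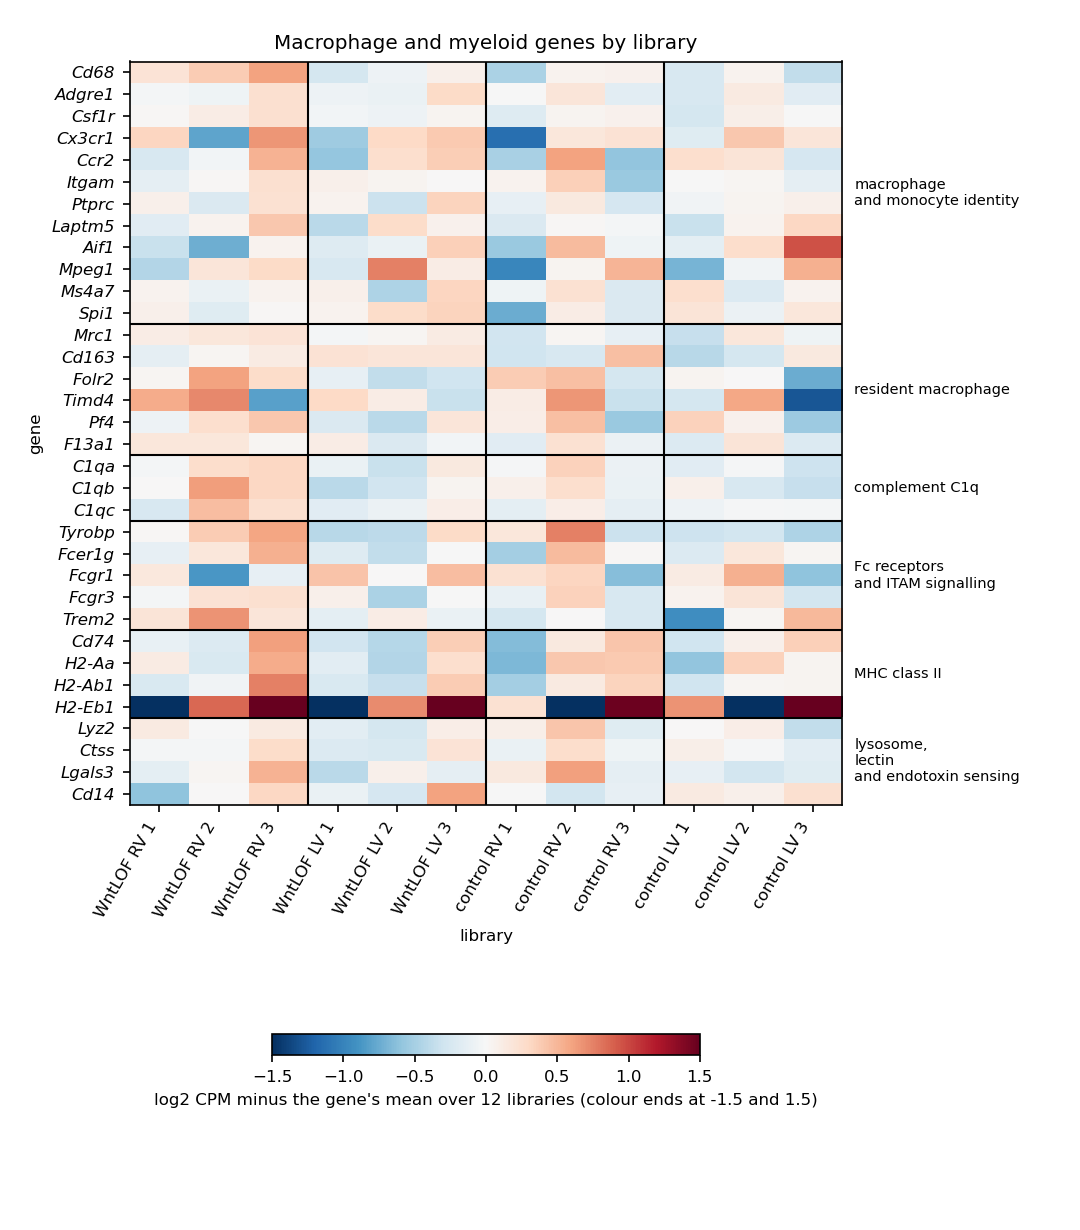
Difference of each member's log2 CPM from its own mean over 12 libraries, red above and blue below, with genes in rows by role and libraries in columns in the order WntLOF RV, WntLOF LV, control RV and control LV. The columns WntLOF RV 3 and control RV 2 are red for 32 and 31 of 34 genes, and the row of H2-Eb1 reaches both colour ends.

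**Figure D5:**
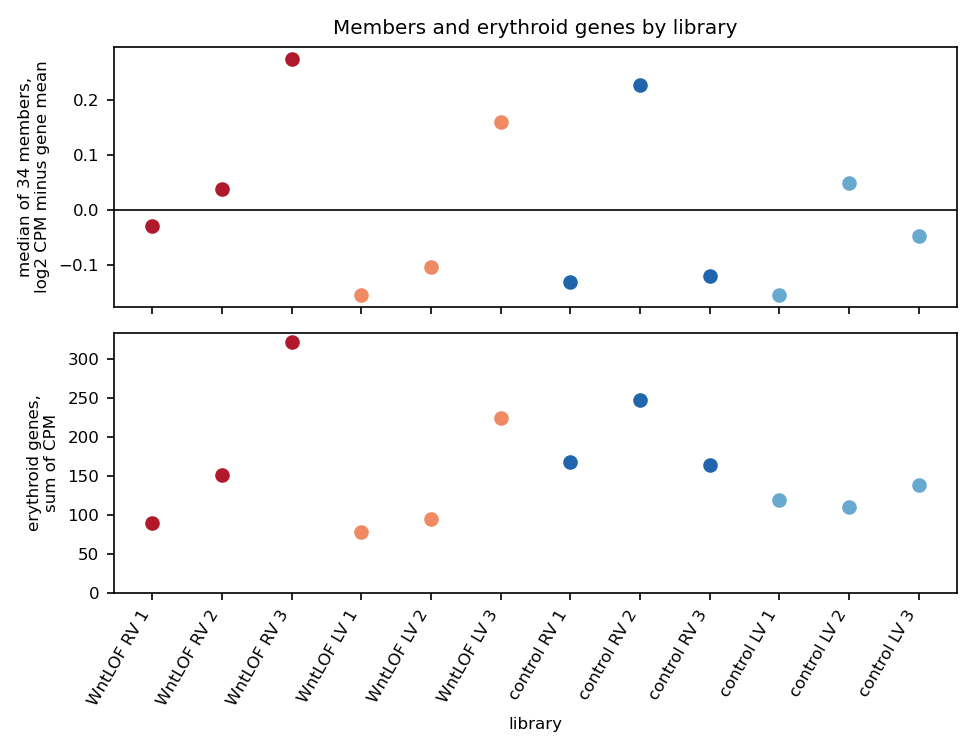
Upper panel, median over the 34 members of the difference in log2 CPM from each gene's mean, and lower panel, summed CPM of 5 erythroid genes, for each of the 12 libraries from WntLOF RV on the left to control LV on the right. WntLOF RV 3 is highest in both, at 0.28 and 321 CPM.

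Some members, named here after their values were seen, ranked alike by library number in all 4 groups. Library 3 was the highest of 3 in each group for 3 members (Cd74, H2-Ab1 and H2-Eb1), where 3.93% of genes tested were. It was the lowest for 1 of the 34 (Timd4), a smaller share than the 4.69% over all genes tested. Library 1 was the lowest in each group for 4 members (C1qc, Laptm5, Mpeg1 and Mrc1), where 1.51% of genes were, and the highest for 0, where 1.91% were. Library 2 was the highest for 0 members, where 1.18% of genes were, and the lowest for 0, where 0.768% were. The 4 libraries numbered 3 are also those with high Ddx3y, so for Cd74, H2-Ab1, H2-Eb1 and Timd4 the library number and the Y-linked level cannot be told apart.

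The difference between the genotype effects of the ventricles, RV effect minus LV effect, had a median of 0.12 over the members, with 25 of 34 above 0, beside a median of 0.0045 over all genes with 50.9% above 0. It was -0.03 without WntLOF RV 3 and 0.25 without control RV 2. In edgeR's quasi-likelihood test of this difference, 0 members and 312 genes had an unadjusted p under 0.05, with DESeq2 at 0 members and 215 genes, and 0 genes passed the adjusted threshold by either tool.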

How the data were processed

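RNA of whole ventricle was extracted with Trizol and made into Illumina libraries, per the labels' protocols. Gene counts were deposited by the authors as whole numbers, with featureCounts, Subread and edgeR named in the submitters' processing notes. Aligner, genome build, annotation and strandedness: not given in the sources used here. Reads of overlapping or antisense genes therefore cannot be told apart. Each deposited comparison table of the authors holds a log2 fold change, a p-value, an adjusted p-value, log2 CPM of each library and a signed linear fold change, as the file headers and values show. It lists 14179 genes, and only its fold changes and p-values are quoted, as the authors' own.

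The count table had 41192 rows for 40594 genes, since 598 rows repeated a gene with equal counts and were used once. Counts were fitted in edgeR 4.0.16 (R 4.3.3) with TMM scaling, filterByExpr by group and a robust quasi-likelihood fit of 4 group means over 12 libraries, with 5 contrasts and Benjamini-Hochberg adjustment over 15494 genes. SE is the log2 fold change divided by the square root of its F statistic. CPM uses TMM-scaled library sizes, and log2 CPM a prior count of 2. Totals of 13274922 to 19173391 reads set the counting error, while SE and SD are between libraries. Exon lengths came from GENCODE and promoter windows from RefSeq, build GRCm38.p6. The fit was tested on simulated data. DESeq2 1.42.0, RLE and total-count scaling, other filters, the compared groups alone, a term for Y-linked reads, a replicate block and left-out libraries were tried as alternatives. The main fit, and its SE and p-values between ventricles, did not pair libraries. Only the replicate block paired libraries. Between ventricles and for the interaction, it took libraries of equal number in the RV and LV of 1 genotype as paired. Between genotypes, it took WntLOF and control libraries of equal number in 1 ventricle as paired. The pairing of RV with LV came from the data, and not from the labels, which leave the meaning of a number unsaid. All 3 correlations were over 0.1 in each genotype, weakly so for WntLOF numbers 1 and 2. In WntLOF, RV 2 with LV 1 (0.201) and RV 1 with LV 2 (0.133) were over 0.1 too, so the correlations did not settle the pairs there.

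The members and gene lists were chosen with earlier results of these data known. Values by library are given for 22 members that cover the roles and, as an exception, for Folr2, and fold changes for members of at least 2 SE, at most 10 per comparison, with exceptions named where they occur, and at most 3 such genes from each other list.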

Additional observations from a re-analysis of the deposited data

How the results depend on the processing

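No member passed an adjusted p of 0.05 in any comparison under any alternative run, and no direction turned for Cd68 and Mrc1 between genotypes in the RV, Cd68, C1qb and Folr2 between ventricles in WntLOF or Tyrobp between ventricles in control. The count of genes called, 0 as reported, was between 0 and 1 in the leave-one-out fits for WntLOF against control in the RV and for RV against LV in WntLOF, and 0 in those of the other comparisons. For RV against LV in control it was 9 with the compared groups alone and 326 with the replicate block in those groups alone. With the pair of WntLOF libraries numbered 1 left out it was 2 in control and 2 in WntLOF, and 2 and 2 again without control LV 2 as well. With the replicate block it was 1 for RV against LV in WntLOF, also with the compared groups alone, and 1 for the interaction. For WntLOF against control the correlations of equal numbers were mixed (-0.043, -0.0903 and 0.233 in the LV and 0.0885, 0.113 and 0.306 in the RV). They were highest for number 3, but WntLOF LV 1 with control LV 2 gave 0.321, so the correlations did not settle the pairs. The block called 0 genes in these comparisons. The member medians kept their sign under scaling, filter, DESeq2, block and Y-linked alternatives, but not when single libraries were left out: the LV genotype median was -0.06 without WntLOF LV 3. Cd68 in the RV ranged from 0.35 to 0.60 and Mrc1 from 0.21 to 0.37 over the left-out libraries. Counting error limits Fcgr1, Ms4a7 and Lgals3 most.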
